A study of Homo sapiens with 6 samples.

Results

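The telomeric end of the long arm of human chromosome 19, band 19q13.43, carries a dense cluster of zinc finger genes, and 49 of them were examined in BT-549 cells. The members were chosen from a list of KRAB and SCAN zinc finger genes of that band, which was drawn up with the response of these cells to treatment already known. That response is therefore neither tested nor reported for them. Listed genes missing from the 19792 genes of the deposited table had been dropped beforehand, so all 49 have a value by choice. Each is annotated as protein-coding. On build GRCh38 they lie between ZNF582 and ZNF446 at chr19:56375846-58481230, a span of 2.105 Mb, with 32 genes on the forward and 17 on the reverse strand.

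Proteins of this family read DNA through arrays of zinc fingers, each a short loop in which a pair of cysteines and a pair of histidines hold a zinc ion. Many also carry a KRAB domain near the amino terminus, which binds TRIM28, and TRIM28 in turn brings the histone methyltransferase SETDB1, HP1 proteins and deacetylases to silence the bound locus. The genes arose by repeated tandem duplication, and their best known targets are transposable elements. ZNF274, one of the members, is known to bind the 3′ ends of zinc finger genes themselves and to recruit SETDB1 there.

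The RNA came from BT-549, an established triple-negative breast cancer line that carried a doxycycline-inducible short hairpin RNA against WDR5, a core subunit of the COMPASS histone methyltransferases, in a vector conferring puromycin resistance. The cells were cultured in triplicate. The vehicle group held 3 cultures given 0.1% DMSO and the DOX group 3 cultures given 500 ng/ml doxycycline. By the paper's account of this sequencing, both treatments lasted a week. Both groups carried the hairpin construct, and doxycycline itself differed between them along with WDR5 silencing. No source used here says whether the transduced cells were 1 clone or a pool.

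The measurement used here is the authors' mean normalized count of each gene over all 6 libraries, vehicle and DOX together. Single libraries were not analysed, so a level below carries no SD and no known depth, and the effect of the hairpin on WDR5, listed at a mean of 1143, was not checked, since the authors' own comparison was not used. Neighbours in an order of levels cannot be separated by a replicate error. A low mean over a culture also cannot tell few expressing cells from little RNA in every cell. The line's labelled identity was compared with marker genes. Mesenchymal genes were high, with VIM at 47782, FN1 at 30461, SPARC at 19657, ZEB1 at 7333 and CDH2 at 4093. The epithelial genes EPCAM, ESRP1, KRT8 and CDH1 lay between 1.30 and 59.6, and KRT18 at 435. ESR1 and PGR, which encode the hormone receptors, were at 0.790 and 0.801, while ERBB2 was listed at 1221. Of the markers of other cell types, PTPRC was at 44.7 and CD14 at 24.0, and ALB, PECAM1 and VWF lay between 0.621 and 4.0.

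The sequences at the start of these genes are shown first, because most of them share a short motif that the choice of members did not use. RefSeq promoter sequences, 250 bases before and 50 after the first listed start on GRCh38.p14, were found for 44 of the 49 members. ZNF471, ZFP28, ZNF211, ZNF552 and ZNF417 had no entry. The promoters of ZNF134 and ZNF274, the 2 members with the highest level per kilobase of merged exon, and of ZNF132 and ZNF497, the 2 with the lowest, read as follows, 5′ to 3′ along the gene, with capitals marking each copy of CCGGAAG, the core bound by ETS family activators, in either orientation.
ZNF134 (chr19:57613992-57614291, forward strand): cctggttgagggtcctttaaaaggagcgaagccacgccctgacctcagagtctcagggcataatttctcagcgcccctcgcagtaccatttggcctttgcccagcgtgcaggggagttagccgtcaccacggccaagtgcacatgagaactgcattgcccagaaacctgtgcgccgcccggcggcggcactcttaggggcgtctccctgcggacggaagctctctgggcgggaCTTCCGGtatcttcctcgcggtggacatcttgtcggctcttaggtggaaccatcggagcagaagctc
ZNF274 (chr19:58182811-58183110, forward strand): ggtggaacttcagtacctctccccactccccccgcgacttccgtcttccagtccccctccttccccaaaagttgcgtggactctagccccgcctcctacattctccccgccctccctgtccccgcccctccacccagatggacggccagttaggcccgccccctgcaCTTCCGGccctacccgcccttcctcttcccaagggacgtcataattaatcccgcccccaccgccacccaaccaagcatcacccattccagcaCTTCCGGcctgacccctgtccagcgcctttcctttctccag
ZNF497 (chr19:58362702-58363001, reverse strand): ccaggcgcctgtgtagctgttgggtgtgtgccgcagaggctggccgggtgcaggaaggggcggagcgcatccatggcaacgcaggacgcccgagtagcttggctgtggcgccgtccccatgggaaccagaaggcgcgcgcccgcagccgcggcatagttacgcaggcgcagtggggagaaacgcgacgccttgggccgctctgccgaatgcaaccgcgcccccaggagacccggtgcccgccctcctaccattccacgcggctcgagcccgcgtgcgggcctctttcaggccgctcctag
ZNF132 (chr19:58440104-58440403, reverse strand): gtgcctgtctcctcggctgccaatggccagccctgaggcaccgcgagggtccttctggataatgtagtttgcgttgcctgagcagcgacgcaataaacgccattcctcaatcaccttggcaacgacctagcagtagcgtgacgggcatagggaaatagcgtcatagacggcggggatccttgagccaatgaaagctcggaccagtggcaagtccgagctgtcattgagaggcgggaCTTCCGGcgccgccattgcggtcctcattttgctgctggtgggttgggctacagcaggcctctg
ZNF274 held 2 copies, ZNF134 and ZNF132 held 1 each, and ZNF497 held none. The few promoters shown cannot tell whether the motif goes with level, and values for all members with a promoter are given below.

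CCGGAAG was present on at least 1 strand in 28 of 44 member promoters, or 63.6% (exact 95% binomial interval 47.8 to 77.6%). The share was 10.7% among all 27305 promoters of the same length, 19.2% among the 10149 promoters of genes whose mean normalized count was 10 or more, and 35.8% among 505 promoters of zinc finger genes elsewhere. It was 76.9% in the zinc finger genes of 19p12 and 27.3% in those of 19q13.12 to 19q13.31, so a high share was not particular to 19q13.43. Genes that arose by duplication are not independent, and the intervals cover counting alone, not the picking of the motif after its share was seen.

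The 33 copies in the 28 promoters lay from 146 bases before to 12 bases after the start, with a median of 17 bases before it, and 28 of the 33 were within 100 bases. In 24 of the 33 the motif read in the reverse orientation, as CTTCCGG along the gene. ZNF582, ZNF773, ZNF256, ZNF274 and ZNF324 held 2 copies. Members with the motif had a median of 67.2 normalized counts per kilobase of exon (range 2.30 to 259, n = 28). Members without it had 54.6 (range 3.46 to 164, n = 16), so the ranges of the 2 sets overlapped almost entirely. The median mean normalized counts were 440 with the motif and 275 without it. Of the 8 members highest per kilobase of merged exon only ZNF329 lacked the motif. Per kilobase of the longest transcript the 8 highest also took in ZNF667, which lacked it, and ZFP28, which had no promoter entry. Of the 8 lowest by either length, ZNF497, ZNF8, ZNF837, ZNF154 and ZNF446 lacked the motif. A link between motif and level was not tested.

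**Figure D1:**
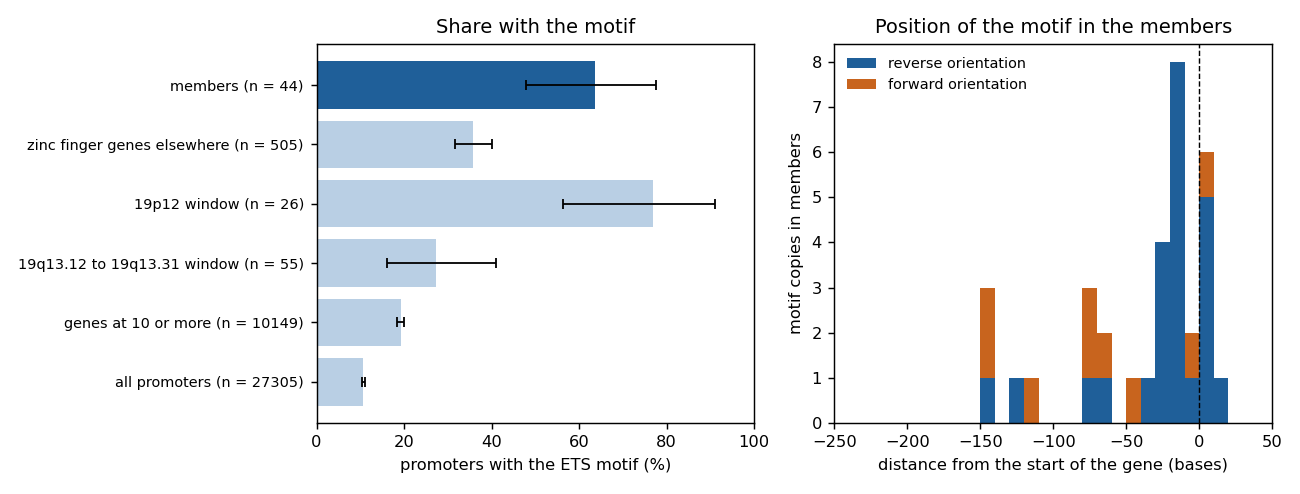
Left, share of promoters (%) that hold CCGGAAG on either strand in the members and in 5 comparison sets, with exact 95% binomial intervals as bars and n promoters in brackets. Right, distance of each of the 33 member copies from the gene start (bases, negative is upstream), by orientation, with overlapping copies counted separately. The members sit at 63.6%, below the 19p12 set at 76.9% and above the other 4 sets, and most copies fall just upstream of the start.

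Of the other motifs searched on both strands, CCAAT was found in 63.6% of member promoters and 35.7% of all promoters, and the E-box CACGTG in 9.09% and 7.43%. The share of CCAAT in the other zinc finger sets was not examined. TATAAA, the TATA box, was in 2.27% and 12%, and AAGATGG, a core of the YY1 site, in 2.27% and 6.06%. The end of CCGGAAG has the letters that open AAGATGG, so these 2 motifs can overlap. Member promoters held a median of 22.5 CpG dinucleotides (range 11 to 42), against 14 over all promoters and 26 in genes at 10 or more. The median was 22 in zinc finger genes elsewhere, 20 in those of 19q13.12 to 19q13.31 and 10 in those of 19p12. The members were thus not richer in CpG than expressed genes. Their GC content had a median of 60.2% against 58.3%. The ratio of observed to expected CpG was 0.833 in the members and 0.580 over all promoters. ZNF667 had the highest CpG count, 42, and ZNF671 the lowest, 11.

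That all 49 genes have a value in the BT-549 cultures follows from their choice and does not show detection, since the lowest value of any gene was 0.124. Of the members, 48 (98.0%) reached 10 normalized counts, against 68.5% of all genes and 78.3% of protein-coding genes. The share was 91.4% in zinc finger genes elsewhere. Member levels were spread over more than 2 orders of magnitude. The mean normalized count had a median of 361 across the members, with quartiles of 180 and 611, against a median of 187 over all genes. The comparison turned with the background, since protein-coding genes had a median of 452 and genes at 10 or more one of 677, both above the members. ZNF274 was highest at 1726 and ZNF132 lowest at 8.42, a ratio of 205. With these included, 33 members lay from 100 to 1000, 7 were at 1000 or more and 9 were under 100. At least 100 was reached by 40 of 49 members (81.6%) and by 54.6% of all genes and 66.5% of protein-coding genes, but at least 1000 by only 14.3% of members and 27.9% of all genes. The members were thus mostly in the middle of the range. Together they summed to 23480 normalized counts, 0.0884% of the total over all genes, and the 5 highest made up 30.7% of that sum.

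Because a longer transcript gathers more reads, levels were compared between genes per kilobase of annotated exon. On that scale the members had a median of 67.3, with quartiles of 38.2 and 107, and a range from 2.30 to 259. ZNF134 stood first at 259, higher than 77.0% of the 18322 genes with an annotated length. ZNF274, the factor that binds zinc finger genes, followed at 207. Their order depended on the length used. Per kilobase of the longest transcript ZNF274 was at 356, ZNF544 at 318, ZNF134 at 270.0, ZFP28 at 252 and ZNF667 at 195. On merged exons, ZNF587 at 182 and ZNF544 at 181 came next, then ZNF416 at 174. ZNF329 and ZNF256 were each at 164 and ZNF776 at 163. These last 3 cannot be ranked against each other from a mean without a spread. Length changed the order for short genes. ZNF256, with 2207 exon bases, had the median mean normalized count of the members, 361, yet one of the 8 highest levels per kilobase.

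The lowest level per kilobase was that of ZNF132 at 2.30, higher than 25.3% of genes. ZNF497 followed at 3.46 and ZNF8 at 4.13, with mean normalized counts of 13.5 and 37.6. ZNF837 stood at 9.59, ZNF154 at 10.8 and ZNF814 at 14.6. ZNF582 at 18.6 and ZNF446 at 20.6 closed the group of 8. In mean normalized counts only ZNF132 fell below 10, so most of these genes were measured, though at low levels. ZNF814 was a different case, with a mean normalized count of 196 spread over 13421 annotated exon bases, the longest of the cluster.

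Along the chromosome, high and low members were interspersed over most of the cluster. At the centromeric end ZNF582 was at 18.6 per kilobase, ZNF583 at 38.2 and ZNF667 at 116. ZNF471 followed at 67.3, ZFP28 at 148, ZNF470 at 74.7 and ZNF71 at 47.8. A gap of 565018 bases, which holds the imprinted PEG3 domain, separates ZNF71 from ZNF264. ZNF264 was at 120, ZNF805 at 76.4, ZNF460 at 39.3 and ZNF543 at 70.6. ZNF304 was at 131. The next gene, ZNF547, stood at 23.3, and ZNF548 beyond it at 100.4. ZNF17, ZNF749 and ZNF772 were at 72.5, 107 and 96.2.

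In the middle of the cluster ZNF419 was at 32.9, ZNF773 at 53.1, ZNF549 at 62.1 and ZNF550 at 71.7. ZNF416 stood above them at 174. ZNF530 was at 39.5 and ZNF134, which starts 1510 bases beyond its end, at 259. ZNF211 and ZNF551 were at 73.3 and 93.1. ZNF154, which lies inside the span of ZNF551 on the other strand, was at 10.8, lower by a factor of 8.63. ZNF671 was at 39.2 and ZNF776 at 163, while ZNF586, ZNF552 and ZNF814 were at 32.8, 25.5 and 14.6. ZNF587, on the opposite strand within the span of ZNF814, was at 182, a ratio of 12.4. That ratio depended on the length used. Per kilobase of the longest transcript ZNF587 was at 194 and ZNF814 at 31.4, and the pair shares exon bases. Over the 48 pairs of adjacent members the ratio of the higher to the lower level had a median of 2.29, and it exceeded 5 in 8 pairs. Spearman's rho between a member's level and that of the next was 0.087 (n = 48 pairs, each gene in up to 2 pairs), close to 0.

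Toward the telomere a step to lower levels stood between ZNF544 and ZNF8. ZNF417, ZNF418 and ZNF606 were at 75.8, 61.4 and 65.3, ZNF135 at 42.5, and ZNF256, ZNF329, ZNF274 and ZNF544 between 164 and 207. ZNF8, whose start is 1459 bases from the end of ZNF544, was at 4.13, a ratio of 43.9. From ZNF8 to ZNF446 the 8 last members had a median of 15.1 per kilobase (range 2.30 to 69.2), and the 41 before them 72.5 (range 10.8 to 259). This boundary was chosen after the levels were seen and carries no test. The last stretch was itself mixed. ZNF584 stood at 69.2 and ZNF132, 1077 bases beyond it, at 2.30, a ratio of 30.1. ZNF324B and ZNF324 were at 40.9 and 63.1. Divided by number into blocks of 17, 16 and 16 members, the cluster had medians of 74.7, 57.6 and 62.3 per kilobase, with 2, 2 and 5 members under a mean normalized count of 100. The rho of level with position was -0.183 (n = 49).

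**Figure D2:**
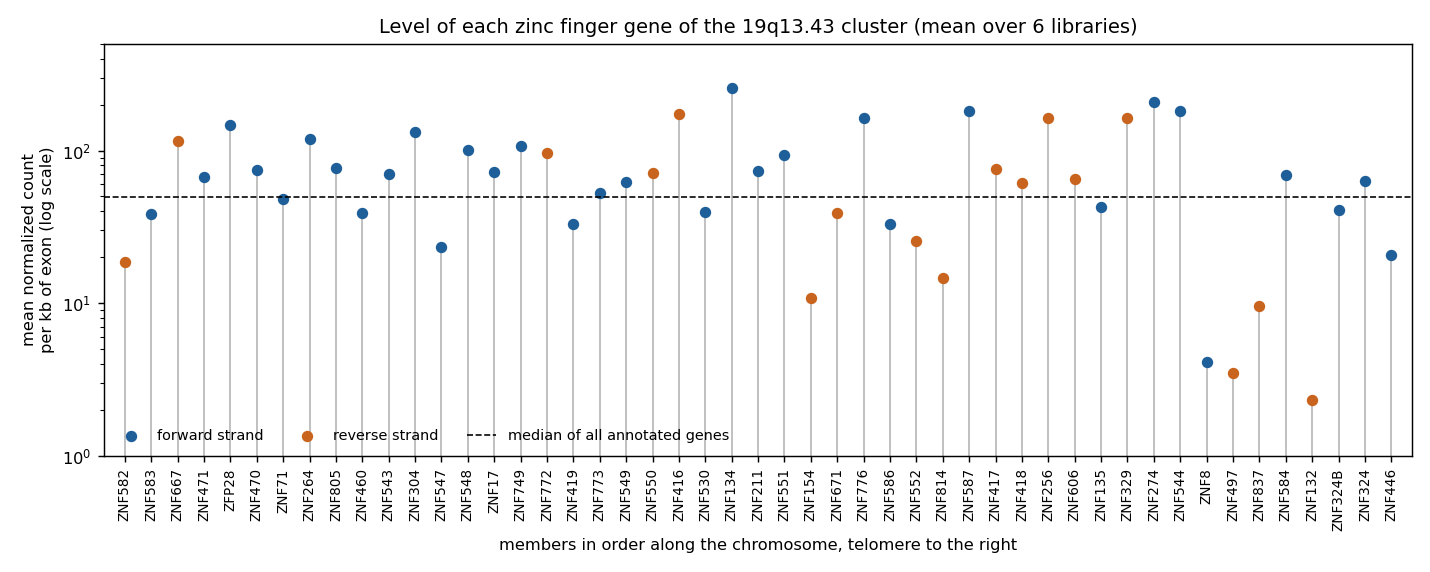
Mean normalized count per kilobase of exon (log scale) of the 49 members in chromosomal order, coloured by strand, with the median of all annotated genes (49.5) as a dashed line. Points are the authors' mean over 6 libraries and have no error bar. High and low members alternate up to ZNF544 at 181, and ZNF8, ZNF497, ZNF837 and ZNF132 to its right lie under 10.

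The coding sequences were read for their zinc fingers, a cysteine pair 2 residues apart, 12 residues, and a histidine pair 3 or 4 residues apart. In 1 such finger of ZNF274, at positions 1525 to 1587 of its coding sequence (GENCODE 44, GRCh38), the capitals mark the cysteine and histidine codons.
ZNF274: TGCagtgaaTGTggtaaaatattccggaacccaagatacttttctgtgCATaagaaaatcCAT
The members held 575 fingers by this pattern, and every one of them lay in the last coding exon of its gene. That exon made up a median of 87.0% of the coding sequence. A member had a median of 12 fingers. ZNF446 had 3, the fewest, ZNF274 had 5 and ZNF552 had 6, while ZNF814 had 23, the most. A KRAB core pattern was found near the start of the protein in 41 members, a count that the choice of KRAB genes as members largely fixed. ZNF470, ZNF530, ZNF134, ZNF256, ZNF329, ZNF497, ZNF837 and ZNF446 lacked the pattern, which does not show that they lack the domain.

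Level did not follow these features closely. The 41 members with the KRAB core had a median of 67.3 per kilobase and the 8 without it 57.1, and the second set held both ZNF134, the highest member, and ZNF497, the second lowest. Spearman's rho of level per kilobase with the number of fingers was 0.171 (n = 49), with coding length 0.318, with exon length 0.154 and with CpG count of the promoter -0.127 (n = 44). The mean normalized count, which is not divided by length, had a rho of 0.509 with exon length. These correlations are across genes that share libraries, duplicated sequence and a scale by length, and 7 were computed.

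**Figure D3:**
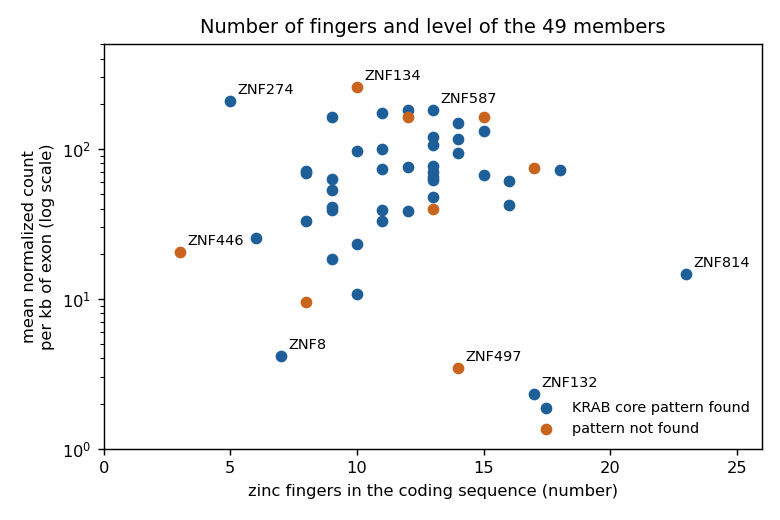
Number of zinc fingers in the coding sequence of each of the 49 members against its mean normalized count per kilobase of exon (log scale), coloured by whether the KRAB core pattern was found. Points spread over the whole height at like finger numbers, and ZNF274 with 5 fingers and ZNF132 with 17 are near opposite ends of the level axis.

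Recent duplicates limit how well some members were measured. In 11 of the 49 the coding sequence was at least 80% identical, over at least 80% of its length, to that of another gene. The closest pair was ZNF587 and ZNF417, known repressors of endogenous retroviruses of the HERVK group, at 99.1% identity. Their coding sequences differed at 16 of 1725 positions, and the longest stretch without a difference was 538 bases. The 84 bases at coding positions 1396 to 1479, which make up 1 finger and the linker to the next, held 3 of these differences, shown in capitals.
ZNF587: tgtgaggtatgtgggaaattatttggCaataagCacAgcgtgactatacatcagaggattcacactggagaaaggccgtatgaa
ZNF417: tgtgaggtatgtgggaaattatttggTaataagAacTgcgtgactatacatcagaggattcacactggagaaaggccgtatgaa
The table lists ZNF587 at 1335 and ZNF417 at 400 normalized counts. Whether reads that match both were counted, and for which, is not given in the sources used here, so the split between the pair is uncertain and ZNF587 ranks high with that limit.

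The same limit applied to the other duplicates. ZNF419 and ZNF773 were 94.96% identical, with mean normalized counts of 264 and 432. ZNF324B and ZNF324 were 92.8% identical, at 165 and 357. ZNF264 and ZNF805 were 89.8% identical, at 1504 and 777, and ZNF543, at 260, was 83.5% identical to ZNF805. ZNF552 and ZNF418, at 76.3 and 277, were nearest to ZNF587B, which is no member, with identities of 85.5% and 80.7%. The 11 members had a median of 63.1 per kilobase and the 38 others 68.3, so duplicates as a group were not set apart in level.

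Overlapping genes were a further limit. In 33 members some exon bases were shared with another annotated gene, on the same strand in 22 and on the opposite strand in 19, and in 15 the shared part came to at least 10% of the exon length. ZNF587 shared 33.2% of its exon bases with ZNF814 on the other strand, and ZNF135 shared 32.6% with ZSCAN18. On the same strand ZNF446 shared 29.8% with ZNF324. Of the low members, ZNF582 shared 35.1% with a long noncoding RNA on the other strand, ZNF497 shared 28.2% with A1BG-AS1 on the other strand, and ZNF8 shared 20.7% with the read-through transcript ZNF8-ERVK3-1 on its own strand. The library kit kept strand, but the strand setting used in counting is not given in the sources used here, and the part of these overlaps in the levels was not tested.

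Set beside other zinc finger genes, the listed members had a somewhat higher level. They are a chosen list, while the comparison sets take every gene with a zinc finger symbol. The median mean normalized count was 361 in the 49 members, 266 in 62 zinc finger genes at 35.1 to 44.7 Mb of the same chromosome (19q13.12 to 19q13.31) and 188 in 30 genes at 19.9 to 24.2 Mb (19p12). Per kilobase the medians were 67.3, 48.0 and 29.0. All 533 other genes in the table with a zinc finger symbol, these windows included, had a median count of 299 and, for the 530 with a length, 52.1 per kilobase. The 7 zinc finger genes within the span that are not members had a median count of 237 and 39.0 per kilobase. Quartiles overlapped throughout, at 38.2 to 107 for the members and 22.3 to 113 for zinc finger genes elsewhere. Over all protein-coding genes the quartiles were far wider, 4.54 to 283, around a median of 79.5. The members thus spanned a narrower range of levels than protein-coding genes at large, and their median lay below the protein-coding one. With 1 pooled value per gene no test between samples was possible for these differences.

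**Figure D4:**
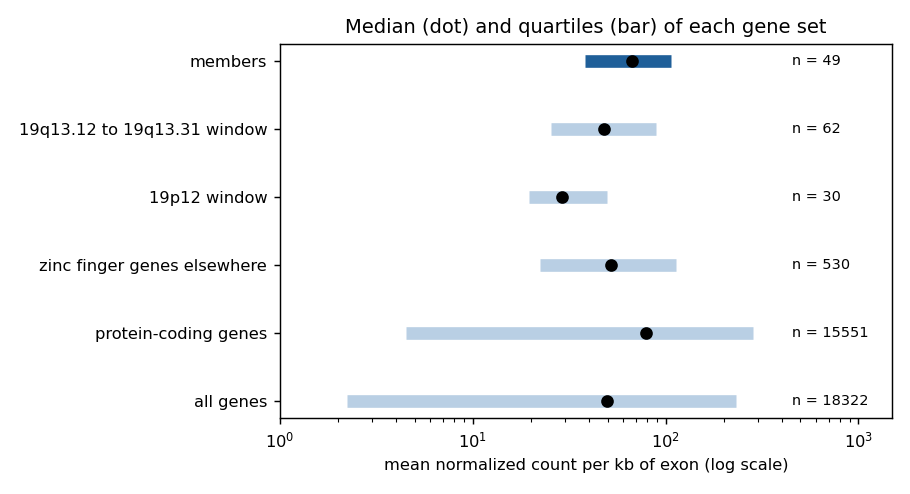
Median (dot) and quartiles (bar) of the mean normalized count per kilobase of exon (log scale) in the members and in 5 comparison sets, with the number of genes at the right. The bars show the spread over genes, not over samples. The member median of 67.3 is the highest of the zinc finger sets shown and lies below that of all protein-coding genes, 79.5. The 7 zinc finger genes of the span that are not members, with a median of 39.0, are not drawn as a set.

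Among the members, ZNF132, ZNF154, ZNF471, ZNF582 and ZNF671 are known for promoter DNA methylation in several tumour types. This list was put together after the levels had been seen and may leave out other members with such reports. DNA methylation was not measured here. The 5 genes had mean normalized counts of 8.42, 74.5, 456, 62.0 and 138, in that order. Per kilobase they ranged from 2.30 for ZNF132 to 67.3, the member median, for ZNF471. Since the choice of genes could set their level, no conclusion is drawn from these 5 genes as a set against the other members.

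The genes of the silencing machinery that KRAB zinc finger proteins use were mostly at higher levels than the members. Of the 22 listed co-repressor genes in the table, 21 lay above the median of all genes, and their median was 2939 normalized counts and 326 per kilobase. TRIM28, the KRAB-binding scaffold, was at 5945, and SETDB1, the methyltransferase it brings, at 1339, with its partner ATF7IP at 4198. The HP1 genes CBX1, CBX3 and CBX5 were at 2565, 6934 and 7686. CHD3, HDAC1 and HDAC2, of the deacetylase complex NuRD, were at 7561, 3314 and 5565. Of the HUSH complex, which silences inserted elements, FAM208A (the older name of TASOR) was at 4866, MPHOSPH8 at 1782 and PPHLN1 at 1230, and MORC2, which works with it, at 1574. ATRX and its partner DAXX, which load histones at repeats, were at 4528 and 5483. SUV39H1 at 516, SUV39H2 at 1028, EHMT1 at 1489 and EHMT2 at 1660 encode other histone H3 lysine 9 methyltransferases. DNMT1 and UHRF1, which maintain DNA methylation, were at 5118 and 1613. SETDB2, the one gene of the list below the median of all genes, was at 82.0. On the scale per kilobase TRIM28 stood at 1381, above all 49 members, but 8 of the 22 lay within the members' range. These were EHMT2 at 227, ATRX at 199, SETDB1 at 182, SUV39H1 at 159, MORC2 at 146, PPHLN1 at 101, EHMT1 at 67.1 and SETDB2 at 12.4. The last 2 were below the member median.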

How the data were processed

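RNA from the 6 BT-549/tet-WDR5shRNA cultures was sequenced as poly(A) libraries with a stranded kit. The submitters' processing notes name STAR, DESeq2 and build GRCh38. The study's methods add a release number to the build, and counting settings and tool versions are not given in the sources used here. The deposited table holds, for each gene, the authors' mean normalized count over all libraries, a signal on the DESeq2 size-factor scale, and 5 columns of the authors' own comparison of DOX with vehicle (fold change, its error, statistic, p-value and adjusted p), which were not used. No count test could be run, since single libraries were not analysed. Their depth, and so the precision, is unknown.

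The named genes were all 49 members, in detail the 8 highest and 8 lowest per kilobase, ZNF274, members with a near-identical copy and a co-repressor list. Members, lists and motifs were chosen with earlier results of these data known, and the members' fold changes were seen when the table was opened. Symbols were matched to GENCODE 44 directly (17729) or by RefSeq synonym (593), and 1470 were unmatched. Exons were merged over all transcripts. Comparison sets were taken by symbol and position, and those within the span were restricted to protein-coding genes after antisense transcripts had matched by symbol. Coding identity came from blastn 2.17.0, in place of the planned protein identity, for which no protein table was used. The KRAB core pattern spans 6 codons within the first 150 and was shortened after a stricter one had matched fewer members. Of the 5 motifs searched, the ETS core was singled out after its share was seen. The finger search and the intervals of medians were tested on simulated data. Python 3.11.15, pandas 2.3.3 and scipy 1.17.1 were used.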

Additional observations from a re-analysis of the deposited data

How the results depend on the processing

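The choice of length moved the members' median level from 67.3 normalized counts per kilobase of merged exon to 76.4 per kilobase of the longest transcript and 209 per kilobase of coding length, because the divisor is shorter. The highest member was ZNF134 per kilobase of merged exon and of coding length, and ZNF274 per kilobase of the longest transcript. The share of members above the median of all genes, 73.5% (36 of 49), depended on the background: it was 22.4% (11 of 49) against genes whose mean normalized count was 10 or more, whose median was 677, and 40.8% (20 of 49) against protein-coding genes, whose median was 452. On the scale per kilobase it was 61.2%. The share of members at 100 or more, 81.6%, became 91.8% at a minimum of 50, 71.4% at 200 and 78.9% without the members that have a near-identical copy. The ratio of the members' median to that of the 19p12 genes was 1.92, and 1.72 to 2.32 under the alternatives. The ratio to the 19q13.12 to 19q13.31 genes was 1.36, and 1.40 to 1.43. No paired analysis was possible because the table gives 1 mean over all libraries, and for the same reason the alternatives planned for a difference between DOX and vehicle (another normalization, no filter, leaving out libraries) were not run. Without depth or a spread over libraries, differences between members of like level are not resolved.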

Other observations

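Within the span of the cluster, 16 other protein-coding genes were in the table, 7 of them zinc finger genes. The genes of the imprinted PEG3 domain, between ZNF71 and ZNF264, were nearly silent: PEG3 was at 1.90 normalized counts, ZIM2 at 0.226 and USP29 at 0.124, while ZNF71 and ZNF264 on either side were at 293 and 1504. The zinc finger genes ZIK1, ZSCAN18, ZSCAN22, ZNF587B and ZSCAN1, at 482, 976, 274, 237 and 25.5, lay in the range of the members, ZSCAN1 near its low end.

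The endogenous retroviral gene ERVK3-1 next to ZNF8 was at 0.226, A1BG at 126 and the vomeronasal-type receptor gene VN1R1 at 4.36. The 9 genes in the span that are not zinc finger genes had a median of 6.41, against 361 for the members. These genes were named after their values were seen.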
